A study of Mus musculus with 235 samples.

Results

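Gene expression was measured by 3' end sequencing in punches of PVN and AMY from the same mice, and the change after dexamethasone in PVN was set against the change in AMY. The 59 libraries were chosen by region and treatment label and are part of 235 libraries from 8 brain regions. They hold 15 vehicle and 15 dexamethasone libraries of AMY, and 14 vehicle and 15 dexamethasone libraries of PVN. All 30 animals were male C57Bl/6 mice aged 3 months, with no genetic change named in the labels. Vehicle animals had saline, and dexamethasone animals had 10 mg per kg of dexamethasone, both into the peritoneum, and 4 h of treatment. Of these animals 29 gave both regions, 14 with vehicle and 15 with dexamethasone, so each mouse served as its own comparison of regions. Of 27998 genes in the count table, 9820 had enough counts to be tested.

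Dexamethasone is a synthetic agonist of the glucocorticoid receptor, a nuclear receptor that moves to DNA when it binds hormone and raises or lowers the transcription of nearby genes. PVN is the paraventricular nucleus of the hypothalamus, where neurons that make corticotropin-releasing hormone start the hormonal stress response and where glucocorticoids feed back to restrain it. The nucleus also holds the large neurons that make oxytocin and vasopressin. AMY is the amygdala, a forebrain structure known for fear learning, in which the same receptor is present.

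No gene passed the test of a difference between the PVN and AMY responses. Each gene's change in PVN was compared with its change in AMY inside the animals, with edgeR's quasi-likelihood test and Benjamini-Hochberg adjustment over the 9820 genes and a threshold of 0.05. It called 0 genes (0%), and the smallest adjusted p was 0.189. At an unadjusted p under 0.05 there were 453 genes, 4.61% of those tested, of which 220 (2.24%) had the higher response in PVN and 233 (2.37%) the lower. DESeq2 with the animal as block also called 0, with 270 genes at an unadjusted p under 0.05. The 95% interval of the difference lay within 1 log2 unit (2-fold) either side of 0 for 9272 genes (94.4%). The median standard error was 0.18 log2 units. A difference smaller than those intervals was not detectable with these libraries, and larger ones could also miss the adjusted threshold. Of the 453 genes with an unadjusted p under 0.05, 0 were called.

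**Figure D1:**
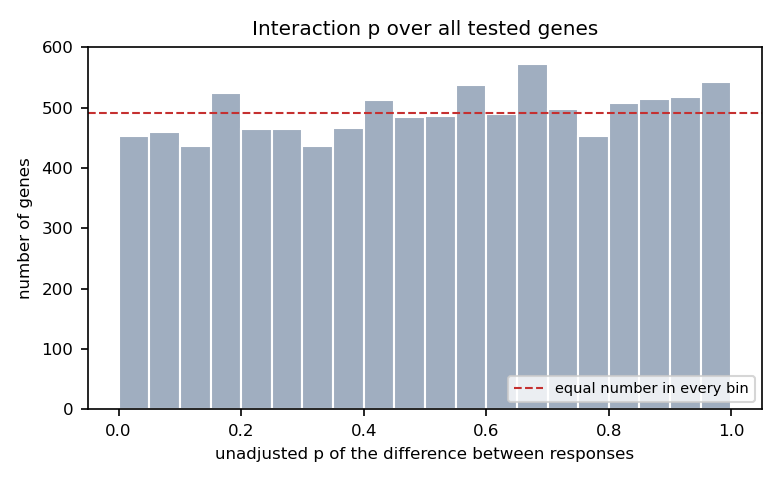
Number of genes (y axis) by unadjusted p of the difference between the PVN and AMY responses (x axis, bins of 0.05), over the 9820 tested genes, with a dashed line at an equal number per bin. The lowest bin holds 453 genes and lies below the dashed line.

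Each region had a response of its own. In PVN dexamethasone changed 564 genes (5.74%), 355 upward (3.62%) and 209 downward (2.13%). In AMY it changed 545 genes (5.55%), 347 upward (3.53%) and 198 downward (2.02%). The regions shared 350 of these genes, 62.1% of those of PVN and 64.2% of those of AMY. Among the shared genes 241 rose in both regions, 109 fell in both and 0 moved in opposite directions. With the number shared by a vehicle and a dexamethasone library as a block (replicate block), the regions shared 392 genes, of which 1, Chrna4, had opposite directions. The animals are the same, so these counts are not independent of each other. A further 214 genes passed in PVN alone and 195 in AMY alone, and none of these genes is shown to differ, since the test of the difference called 0. An unadjusted p under 0.05 for the difference was found for 53 of the 214 and 44 of the 195, beside 4.61% of all genes. These genes were picked on the same libraries for passing in 1 region, so those counts are no separate evidence of a difference. For 325 of the 350 shared genes (92.9%) the interval of the difference lay within 1 log2 unit of 0. The interval did so for 670 of the 759 genes called in either region (88.3%).

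**Figure D2:**
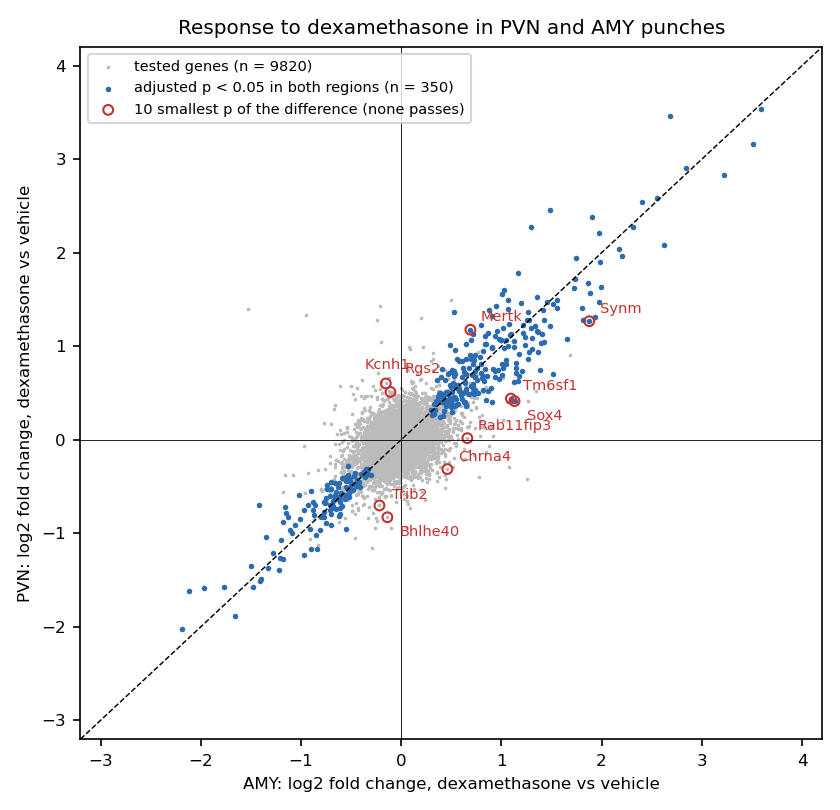
Log2 fold change after dexamethasone in AMY (x axis) and PVN (y axis), 1 point per tested gene, with a dashed line of equal response. The 350 genes past the threshold in both regions are blue and lie at the upper right and lower left, and the 10 genes closest to a difference are circled in red.

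The promoters of genes that rose in both regions are shown because a response common to PVN and AMY is the main pattern of the comparison. The glucocorticoid receptor binds DNA as a pair of molecules at an inverted repeat of a short motif. The pattern GNACANNNTGTNC, which reads alike on both strands, was searched in the 250 bases before each start site in the RefSeq promoter table (GRCm38.p6). It was in 7 of the 194 genes that rose in both regions and had a promoter entry (3.61%), in 0 of 83 that fell, and in 0.334% of all tested genes with an entry. The longer pattern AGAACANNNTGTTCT, which contains the first, was in 1 of the 194 (0.515%), the gene Sgk1, and in no other of the 7785 tested genes with an entry (0.0128%). The single repeat TGTTCT on either strand was in 11.3% of the genes that rose and 12.4% of all tested genes. These are matches of letters, with no measurement of binding, and no test was made of the shares. Capitals mark the 13 letters matched, with 30 bases on each side:
Sgk1, chr10:21993672-21993744, plus strand: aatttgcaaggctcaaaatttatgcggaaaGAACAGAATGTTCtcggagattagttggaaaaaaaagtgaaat
Mt1, chr8:94178965-94179037, plus strand: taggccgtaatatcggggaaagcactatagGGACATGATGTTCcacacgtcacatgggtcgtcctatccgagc
Fam107a, chr14:8309855-8309927, minus strand: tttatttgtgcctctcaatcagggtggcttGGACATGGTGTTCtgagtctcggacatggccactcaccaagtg
Kcna5, chr6:126535572-126535644, minus strand: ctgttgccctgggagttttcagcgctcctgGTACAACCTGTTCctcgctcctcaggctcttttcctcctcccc
Ptpdc1, chr13:48593500-48593572, minus strand: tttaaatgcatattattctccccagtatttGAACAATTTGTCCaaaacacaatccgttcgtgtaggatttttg
Txnip, chr3:96557755-96557827, plus strand: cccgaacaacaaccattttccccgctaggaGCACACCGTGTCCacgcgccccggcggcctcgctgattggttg

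Tinagl1 was the seventh of these genes. Sgk1 encodes a kinase known for control of ion channels and transporters. Its vehicle level ran from 21.9 to 116 CPM (counts per 1000000 counts, scaled by TMM) in PVN and from 25.9 to 266 in AMY. After dexamethasone it ran from 79.1 to 173 in PVN and from 128 to 333 in AMY. All 15 dexamethasone libraries of each region were above the vehicle median, and the arms overlapped in both. The log2 rise of Sgk1 was 1.01 ± 0.16 (SE) in PVN and 1.24 ± 0.22 in AMY, a difference of -0.24 with a 95% interval from -0.54 to 0.06. The other 5 genes printed rose by 0.50 to 1.24 in PVN and by 0.48 to 1.35 in AMY, with differences from -0.25 to 0.20. Mt1 encodes a metal-binding metallothionein, Kcna5 a voltage-gated potassium channel and Txnip an inhibitor of thioredoxin. None of the 8 genes with a promoter entry among the 10 closest to a difference held the 13-letter pattern in this window.

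Most punch markers were higher in the region they mark, 1 PVN library stood apart in 2 of the lists, and 2 AMY libraries in another. All 12 hypothalamic markers were higher in PVN than in AMY in vehicle animals, beside 10% of all genes, among them Sim1 by 2.52 ± 0.40 and Otp by 2.29 ± 0.21 log2 units, transcription factors of the developing PVN. Of 11 tested amygdala and forebrain markers 7 were higher in AMY, beside 11.7% of all genes. The mean log2(CPM + 1) of the hypothalamic list ran from 7.11 to 8.19 in 28 of the PVN libraries and from 5.39 to 7.30 in the 30 AMY libraries. The library labelled PVN dexamethasone 1 had 6.50 for that list and 7.38 for the forebrain list, inside the AMY ranges and outside those of the other PVN libraries. Its summed levels for both lists, 3960 and 4223 CPM, lay within the ranges of the other PVN libraries (3790 to 5984 and 1853 to 4615) and of AMY. By the mean log2(CPM + 1) its thalamic (6.04), striatal (3.91) and microglial (4.08) levels lay within the ranges of the other PVN libraries and outside those of AMY, which were 4.87 to 5.86, 3.99 to 7.79 and 4.35 to 5.75. Its summed thalamic level of 636 CPM lay below the other PVN libraries (787 to 3038) and inside the AMY range (357 to 716). The lists thus do not place that library with 1 region. Leaving out that animal gave 0 calls of a difference, with a smallest adjusted p of 0.261, and leaving out its PVN library gave 568 genes in the PVN response instead of 564. Choroid plexus markers summed to 8619 CPM in AMY dexamethasone library 13 and 2706 in AMY vehicle library 8, against AMY medians of 352 and 404. Leaving out either animal gave 0 calls of a difference, and leaving out either AMY library gave 547 and 528 genes in the AMY response instead of 545. A library held 361319 to 1277998 counts (median 722621), and RNA integrity numbers ran from 2.2 to 7.6. The labels give 5 punching dates and 4 library plates.

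**Figure D3:**
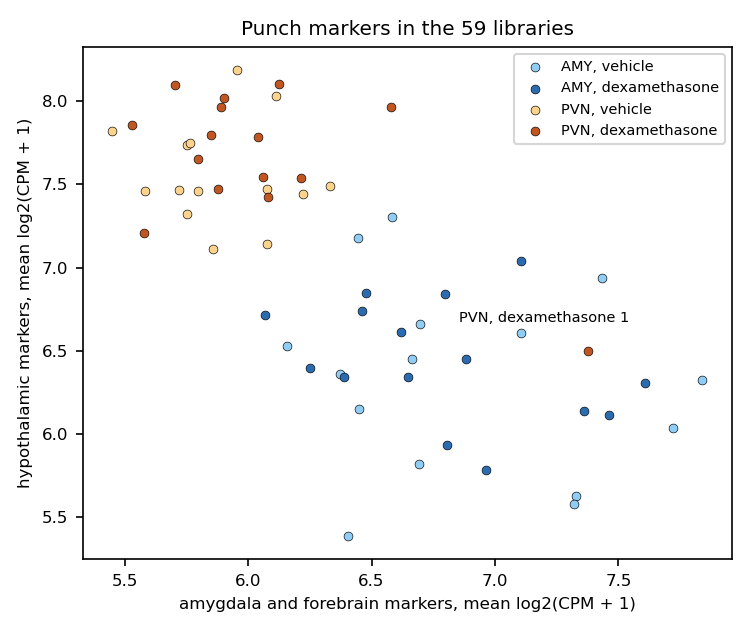
Mean log2(CPM + 1) of the amygdala and forebrain markers (x axis) and of the hypothalamic markers (y axis) in each of the 59 libraries, coloured by region and treatment. The library labelled PVN dexamethasone 1 lies among the AMY libraries at 7.38 and 6.50 in these 2 lists, while its mean thalamic, striatal and microglial levels lie with the PVN libraries.

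Markers of the tissue in and around each punch were compared between arms. No punch list differed between arms within a region past a Benjamini-Hochberg adjusted p of 0.05 (permutation test, two-sided, 26 tests). Single members did. Of the striatal markers 1 rose in PVN, Rgs9 (1.05 ± 0.21, adjusted p = 0.000402, edgeR), and of the forebrain markers 1, Ppp1r1b (0.72 ± 0.14, adjusted p = 0.00025, edgeR). Of the thalamic markers 1 fell in PVN and 1 rose in AMY, Rora (0.37 ± 0.09, adjusted p = 0.00375, edgeR). Over all genes 3.62% rose and 2.13% fell in PVN, and 3.53% rose in AMY. The difference of responses was above 0 for all 7 tested striatal markers, with a median of 0.54 log2 units. It was below 0 for all 7 thalamic markers, with a median of -0.44. It was above 0 for 9 of the 11 forebrain markers, with a median of 0.41. Over all 9820 genes 5010 were above 0 and the median was 0.00. None of these markers passed the test of the difference, and markers of 1 list share the same punches. In vehicle animals the striatal markers were 7 of 7 higher in AMY and the thalamic markers 7 of 7 higher in PVN, beside 11.7% and 10% of all genes. In bulk tissue fewer cells of a type and less RNA per cell cannot be told apart.

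Of the 10 genes with the smallest p of the difference, 7 had the lower response in PVN and 3 the higher. None passed, and every adjusted p among them was between 0.189 and 0.499, so their values are a description. Positions below are on GRCm38 as the count table gives them, from the first to the last exon base. Rab11fip3 (ENSMUSG00000037098, chromosome 17, 25989036 to 26069409, minus strand) encodes an effector of Rab11 in recycling endosomes and was first in the order. In AMY its lowest, median and highest levels were 18.2, 31.7 and 38.8 CPM with vehicle and 29.2, 49.3 and 66.2 with dexamethasone. In PVN they were 22.6, 38.2 and 49.9 with vehicle and 20.2, 36.2 and 57.6 with dexamethasone. In AMY 14 of 15 dexamethasone libraries were above the highest vehicle library, whereas in PVN 6 of 15 were above the vehicle median. Rab11fip3 rose in AMY by 0.66 ± 0.10 log2 units (adjusted p = 4.78e-06, edgeR) and its PVN value was 0.02 ± 0.12 (adjusted p = 0.981). The difference was -0.65 with an interval from -0.93 to -0.38 (p = 1.93e-05, adjusted p = 0.189, edgeR), and the ratio of PVN to AMY level was below the vehicle median in 14 of 15 dexamethasone animals.

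Mertk (ENSMUSG00000014361, chromosome 2, 128698956 to 128802894, plus strand) encodes a receptor kinase by which astrocytes, microglia and macrophages take up dying cells and synapses. PVN vehicle libraries had 29.3 to 79.1 CPM with a median of 49.2, and PVN dexamethasone libraries had 96.7 to 156 with a median of 114, with no overlap. AMY vehicle libraries had 50.9 to 117 with a median of 84.8, and AMY dexamethasone libraries had 104 to 160.0 with a median of 136, with 13 of 15 above the highest vehicle library. The vehicle level was thus lower in PVN, by 0.69 ± 0.10 log2 units (-0.69, adjusted p = 2.03e-06, edgeR), and the dexamethasone levels of both regions overlapped. Mertk rose by 1.18 ± 0.13 in PVN and by 0.69 ± 0.10 in AMY. The difference of 0.53, with an interval from 0.29 to 0.77, had an adjusted p of 0.326, and 15 of 15 dexamethasone animals had a ratio of PVN to AMY above the vehicle median. The vehicle levels come from libraries that also enter the difference, so they are no separate evidence of it.

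Sox4, Tm6sf1 and Synm rose in both regions, each with the larger estimate in AMY. Sox4 (ENSMUSG00000076431, chromosome 13, 28948919 to 28953713, minus strand) encodes a transcription factor of immature neurons and glia. Its median went from 51.8 to 118 CPM in AMY and from 54.4 to 74.2 in PVN, with vehicle ranges of 36.6 to 74.3 and 32.6 to 67.1 and dexamethasone ranges of 62.5 to 182 and 35.4 to 90.3. The arms overlapped in both regions, although 13 of 15 dexamethasone libraries in AMY and 9 of 15 in PVN exceeded the highest vehicle library. The log2 rise of Sox4 was 1.13 ± 0.12 in AMY and 0.41 ± 0.11 in PVN, a difference of -0.70 (interval -1.04 to -0.37, adjusted p = 0.395, edgeR).

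Synm (ENSMUSG00000030554, chromosome 7, 67730160 to 67759742, minus strand) encodes synemin, an intermediate filament protein found in astrocytes. Vehicle levels overlapped, at 34.1 to 82.9 CPM in AMY and 32.6 to 83.6 in PVN, with a difference of 0.08 ± 0.11 log2 units between regions. Dexamethasone levels were 119 to 307 in AMY and 93.6 to 203 in PVN, above every vehicle library in both. Synm rose by 1.88 ± 0.12 in AMY and 1.27 ± 0.11 in PVN, a difference of -0.57 (interval -0.88 to -0.26, adjusted p = 0.499, edgeR). Tm6sf1 (ENSMUSG00000038623, chromosome 7, 81859001 to 81884434, plus strand) encodes a membrane protein of lysosomes. Its AMY levels went from 22.8 to 47.4 CPM with vehicle to 52.3 to 106 with dexamethasone without overlap, and its PVN levels from 32.6 to 66.0 to 44.2 to 82.3 with overlap. The difference of Tm6sf1 was -0.63 ± 0.16. Of its exon bases 20.6% lie opposite exons of Hdgfl3, a more highly counted gene on the other strand, and whether the counting used strand is not given in the sources used here. The same holds for 54.6% of Sox4, whose partner Gm26735 had 2 counts in the 59 libraries.

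Kcnh1 and Rgs2 rose in PVN and did not pass in AMY. Kcnh1 (ENSMUSG00000058248, chromosome 1, 192190774 to 192510159, plus strand) encodes a voltage-gated potassium channel of neurons. Its PVN median was 29.5 CPM with vehicle (17.6 to 63.6) and 45.8 with dexamethasone (29.3 to 83.6), while its AMY medians were 63.7 (30.5 to 86.8) and 54.9 (34.2 to 72.9). Kcnh1 rose by 0.60 ± 0.18 in PVN against -0.15 ± 0.14 in AMY, and its vehicle level was lower in PVN (-0.88 ± 0.14). Rgs2 (ENSMUSG00000026360, chromosome 1, 143999338 to 144004161, minus strand) encodes a protein that shortens signalling from Gq-coupled receptors. All 15 PVN dexamethasone libraries, at 91.4 to 269 CPM, lay above the PVN vehicle median of 88.5, and 6 lay above the highest vehicle library at 129. AMY levels were 90.5 to 206 with vehicle and 98.8 to 189 with dexamethasone and overlapped almost wholly. Rgs2 rose by 0.51 ± 0.12 in PVN against -0.11 ± 0.10 in AMY, a difference of 0.59 (interval 0.28 to 0.89, adjusted p = 0.499, edgeR). For both Kcnh1 and Rgs2 the ratio of PVN to AMY was above the vehicle median in 15 of 15 dexamethasone animals.

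Bhlhe40 and Trib2 fell in PVN and did not pass in AMY. Bhlhe40 (ENSMUSG00000030103, chromosome 6, 108660629 to 108666925, plus strand) encodes a repressor that acts on clock genes. PVN levels were 39.5 to 101 CPM with vehicle and 18.1 to 62.0 with dexamethasone, and 10 of 15 dexamethasone libraries were below the lowest vehicle library. AMY levels were 41.7 to 75.6 with vehicle and 34.0 to 78.2 with dexamethasone. Bhlhe40 fell by 0.83 ± 0.12 in PVN, with -0.14 ± 0.12 in AMY and a difference of -0.71 (interval -1.08 to -0.33, adjusted p = 0.499, edgeR). Trib2 (ENSMUSG00000020601, chromosome 12, 15791727 to 15816877, minus strand) encodes a pseudokinase. Its PVN levels were 63.6 to 125 CPM with vehicle and 51.4 to 97.0 with dexamethasone, again with 10 of 15 below the lowest vehicle library, and its AMY levels were 54.5 to 119 and 68.2 to 105. The fold change of Trib2 was -0.70 ± 0.09 in PVN and -0.22 ± 0.09 in AMY, a difference of -0.48.

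Chrna4 (ENSMUSG00000027577, chromosome 2, 181018380 to 181043546, minus strand), a subunit of the nicotinic acetylcholine receptor, passed in neither region in the fit without covariates. Its vehicle level was higher in PVN by 2.09 ± 0.14 log2 units, at 48.0 to 117 CPM against 8.34 to 27.0 in AMY. After dexamethasone it was 40.4 to 74.0 in PVN and 12.4 to 40.6 in AMY. The values were -0.31 ± 0.10 in PVN (adjusted p = 0.0644, edgeR) and 0.46 ± 0.18 in AMY (adjusted p = 0.194), a difference of -0.78. The values of Chrna4 thus had opposite signs in PVN and AMY, and neither passed in that fit. With the replicate block both passed, at -0.34 in PVN (adjusted p = 0.0176, edgeR) and 0.48 in AMY (adjusted p = 0.0366). The PVN value of Chrna4 also passed with punching date and plate as factors (-0.30, adjusted p = 0.0422, edgeR) and with DESeq2 (-0.32, adjusted p = 0.0439), and its AMY value in neither.

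**Figure D4:**
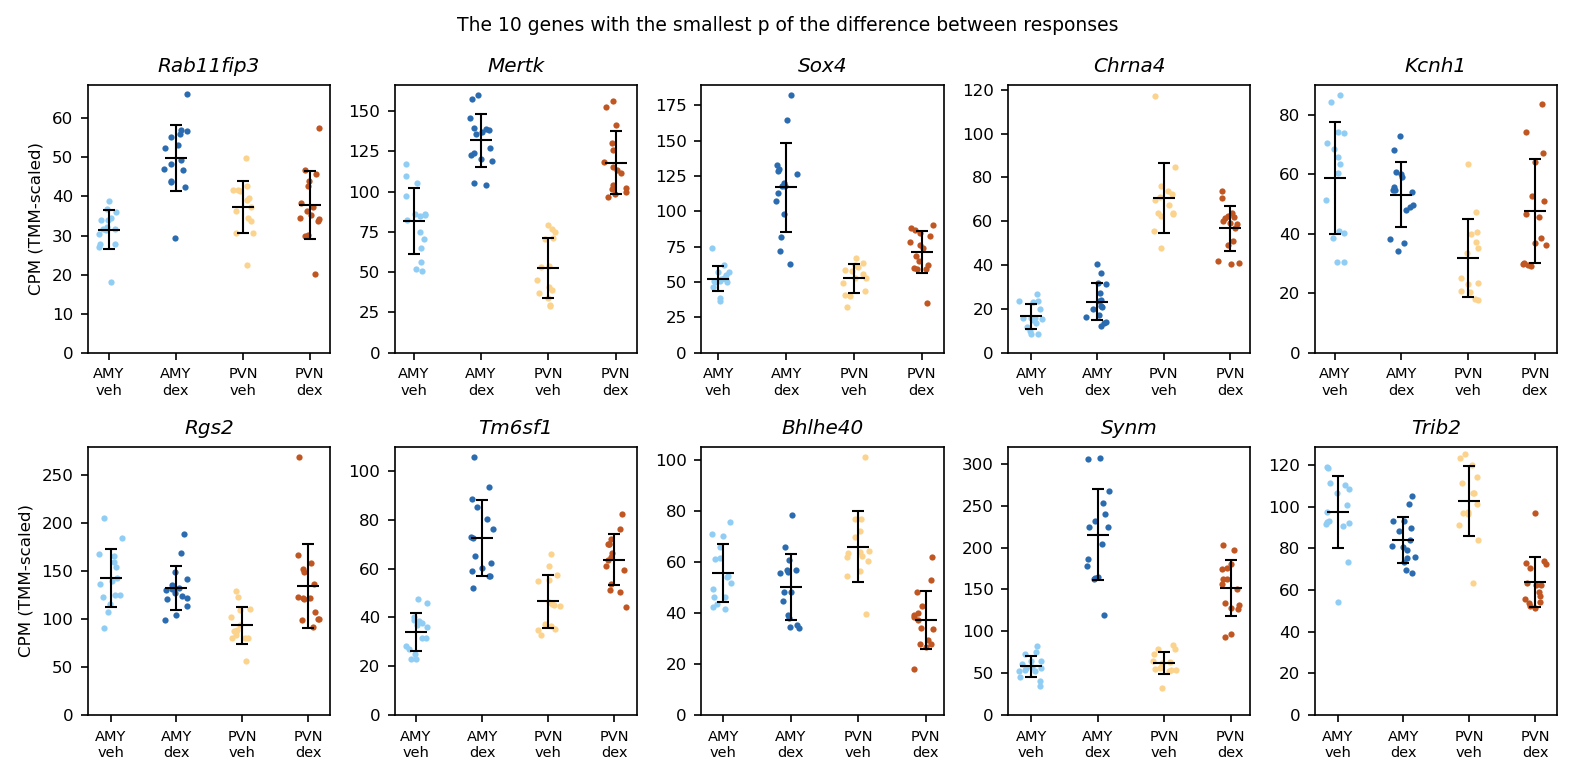
Level in CPM (y axis) of the 10 genes closest to a difference, 1 point per library in the 4 groups (x axis), with mean ± SD as bars. In the Mertk panel the PVN dexamethasone libraries lie at 96.7 to 156, above all PVN vehicle libraries, and none of the 10 genes passed the test of the difference.

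Within the 4 plates the difference of Rab11fip3 ran from -0.82 to -0.20 and that of Mertk from 0.17 to 0.63, and within the 5 punching dates from -0.97 to -0.28 and from 0.06 to 0.68, with 1 vehicle animal on the second date. Bhlhe40 (-1.80 to 0.18) and Rgs2 (-0.05 to 0.96) had the opposite sign on 1 date. The 10 genes were chosen on these same libraries, so an equal sign in the batches is no support. A further 3 genes were chosen after their values were seen, for having a large difference and ranks just beyond the tenth. Dio2 (ENSMUSG00000007682), the deiodinase that makes active thyroid hormone in astrocytes and tanycytes, had PVN levels of 18.2 to 37.4 CPM with vehicle and 99.7 to 221 with dexamethasone. AMY levels of Dio2 were 21.6 to 154 and 108 to 349. Dio2 rose by 2.46 ± 0.13 in PVN and 1.48 ± 0.19 in AMY, with a vehicle level lower in PVN by 1.32 ± 0.17 (-1.32) and a difference of 0.90 (interval 0.41 to 1.40, adjusted p = 0.499, edgeR). Nrros (ENSMUSG00000052384), a microglial protein that anchors latent TGF-beta, rose in both regions, from vehicle medians of 5.58 CPM in PVN and 9.24 in AMY to 28.0 and 22.0, with a difference of 1.03 ± 0.28. Tesc (ENSMUSG00000029359), a calcium-binding protein, rose in PVN by 1.28 ± 0.24 against -0.24 ± 0.28 in AMY, where its vehicle median was 65.9 CPM against 8.97 in PVN. Neither Nrros nor Tesc passed the test of the difference, each at an adjusted p of 0.499.

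Known targets of the glucocorticoid receptor rose in both regions, with no call of a difference. Of 20 listed genes 17 were tested (not Arrdc2, Pdk4 or Map3k6), 15 rose in PVN, 16 rose in AMY and 0 passed the difference, beside 3.62% and 3.53% of all genes that rose and 0% that passed. The median of the list was 1.16 log2 units in PVN and 1.24 in AMY, beside 0.00 and -0.01 over all genes, and its median difference was -0.02. The list was chosen with earlier results of these data known, so its shares and medians are no independent support. Fkbp5 (ENSMUSG00000024222), a co-chaperone that dampens the receptor, had 7.97 to 22.9 CPM in PVN vehicle libraries and 72.7 to 122 after dexamethasone. In AMY Fkbp5 had 11.4 to 38.7 and 86.8 to 157, so the arms did not overlap in either region. The rise of Fkbp5 was 2.59 ± 0.11 in PVN and 2.55 ± 0.12 in AMY, and the difference of 0.04 had an interval from -0.31 to 0.39. Cdkn1a, a cell cycle inhibitor, rose by 3.53 ± 0.15 and 3.59 ± 0.19, and Plin4, a lipid droplet protein, by 2.90 ± 0.24 and 2.85 ± 0.26. Zbtb16, a zinc finger repressor, rose by 2.21 ± 0.15 and 1.97 ± 0.20. Nfkbia, the inhibitor of NF-kappaB, rose in both with a difference of -0.02 ± 0.11.

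Of the 17 genes 5 had an unadjusted p under 0.05 for the difference, beside 4.61% of all genes, with Mertk the smallest and the others at an adjusted p near 1. Mt2, a metallothionein, rose to 901 to 1316 CPM in PVN from 358 to 611, and to 703 to 1185 in AMY from 373 to 712. Its difference was 0.20 ± 0.09. The differences of Ddit4, an mTOR inhibitor, Errfi1, a feedback inhibitor of the EGF receptor, and Gjb6, an astrocyte connexin, were -0.32, -0.50 and -0.32. Dusp1, a MAP kinase phosphatase, rose in AMY by 0.76 ± 0.14 and missed the threshold in PVN at 0.45 ± 0.15 (adjusted p = 0.0613, edgeR; 0.0342 with the replicate block and 0.0109 with punching date and plate), and its difference of -0.30 ± 0.21 did not pass. Per1, a clock gene with a known glucocorticoid response, passed in neither region (0.43 ± 0.14 in PVN, 0.32 ± 0.16 in AMY) and rose in PVN with the replicate block (0.50, adjusted p = 0.00842, edgeR) and with punching date and plate (0.47, adjusted p = 0.0165). Tsc22d3, Mt1, Klf9 and Sult1a1 rose in both regions with differences from -0.10 to 0.16. Nr3c1, the receptor's own gene, fell by 0.50 ± 0.08 in PVN and by 0.55 ± 0.12 in AMY, with a difference of 0.08 (interval -0.22 to 0.37).

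**Figure D5:**
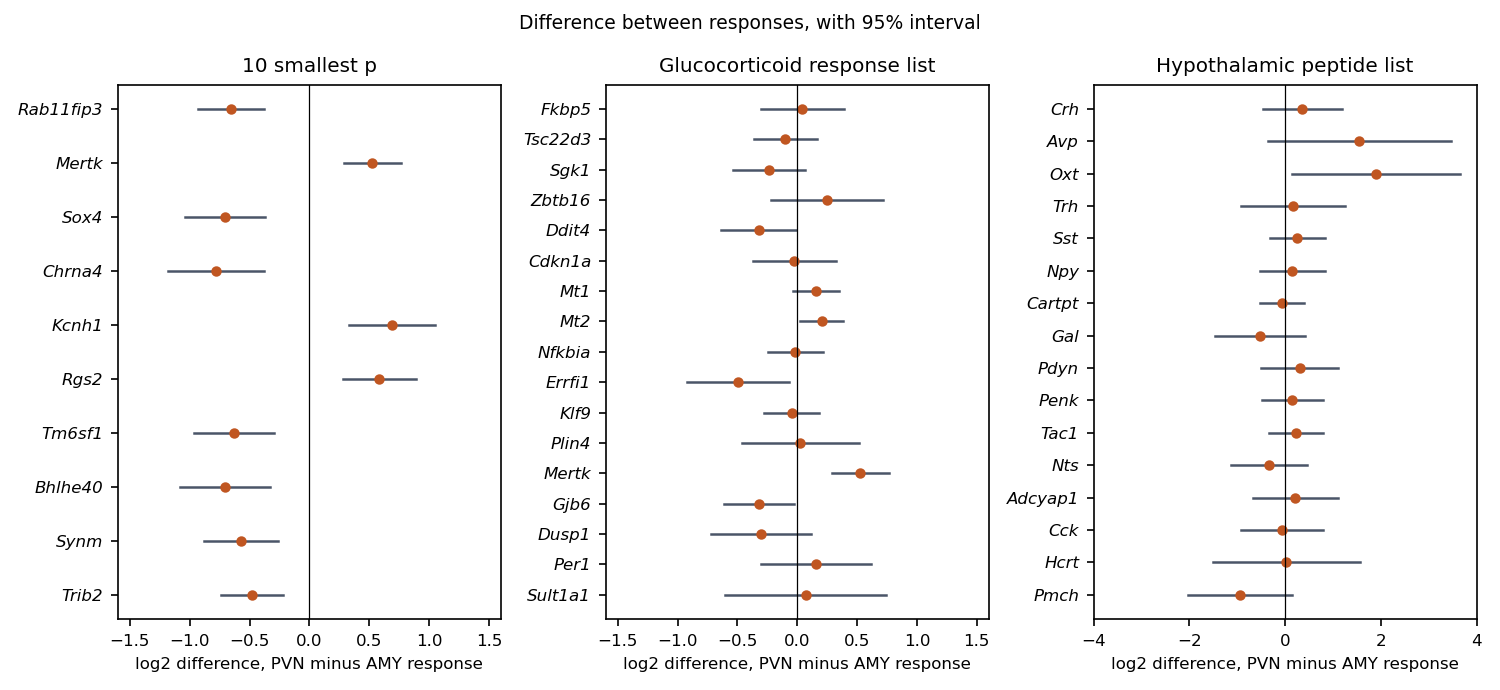
Difference of the log2 responses, PVN minus AMY (x axis), with its 95% interval for the 10 closest genes, the 17 tested glucocorticoid response genes and the 16 tested hypothalamic peptide genes (y axis; the third panel has a wider scale). The Fkbp5 interval runs from -0.31 to 0.39, and the widest peptide intervals are those of Avp (-0.37 to 3.46), Oxt (0.15 to 3.64) and Hcrt (-1.52 to 1.56).

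Peptide genes differed in vehicle level and gave no call of a response in the fit without covariates. Of 20 listed, 16 were tested, 9 were higher in PVN (10% of all genes) and 7 were higher in AMY (11.7% of all genes). Dexamethasone passed for 0 of the 16 in either region, beside 5.74% of all genes in PVN and 5.55% in AMY, and 0 passed the difference. Oxt, the oxytocin gene, had PVN levels of 5.07 to 1489 CPM with vehicle (median 120.0) and 1.26 to 1659 with dexamethasone (median 667). Its AMY levels were 1.65 to 167 and 0 to 92.8. The spread within an arm covered nearly the whole range, and the difference of 1.90 had an interval from 0.15 to 3.64 (p = 0.0338, adjusted p = 1, edgeR). Avp, the vasopressin gene, had PVN medians of 35.3 and 99.6 CPM and a difference of 1.55 with an interval from -0.37 to 3.46. The own response of Avp in PVN was 1.40 ± 0.58 (adjusted p = 0.204, edgeR), and with punching date and plate as factors Avp rose there by 1.89 (adjusted p = 0.0475). Over the alternatives the difference of Avp ran from 0.56 to 2.95 and that of Oxt from 1.05 to 2.58, and without vehicle animal 1 that of Avp was 0.78. The AMY vehicle library 1 alone had 552 CPM of Avp and 167 of Oxt. Crh, the releasing hormone gene, had PVN medians of 18.8 CPM with vehicle and 23.1 with dexamethasone and AMY medians of 28.0 and 41.8, and in vehicle animals it was lower in PVN by 0.90 ± 0.20 log2 units (-0.90). Its difference was 0.36 with an interval from -0.46 to 1.18, so neither a lower nor a higher response of Crh in PVN than in AMY was detectable. The own response of Crh in PVN was 0.92 ± 0.35 (adjusted p = 0.138, edgeR), and with the replicate block Crh rose there by 0.98 (adjusted p = 0.0222). Pmch and Hcrt, peptides of the lateral hypothalamus, were higher in PVN punches than in AMY by 4.83 ± 0.36 and 4.62 ± 0.52. Their differences of response were -0.95 ± 0.54 and 0.02 ± 0.76. Trh, Cartpt, Gal, Cck and Adcyap1 were also higher in PVN, and Pdyn, Penk, Tac1, Npy, Sst and Nts in AMY. The differences of response of these 11 genes ran from -0.53 for Gal to 0.31 for Pdyn, with 95% intervals that all held 0. Pomc, Agrp, Vip and Ghrh had too few counts to be tested.

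Genes of neuronal activity, the clock, insulin signalling and potassium channels gave no call of a difference either. Among 10 tested activity genes 9 had a difference above 0, and 3 had an unadjusted p under 0.05, beside 4.61% of all genes. Junb, an AP-1 factor, had AMY levels of 17.1 to 72.8 CPM with vehicle and 5.49 to 51.4 with dexamethasone, and PVN levels of 8.00 to 20.4 and 8.23 to 36.2. The arms of Junb overlapped in both regions, and its difference was 0.84 ± 0.26 (p = 0.00243, adjusted p = 0.691, edgeR). Homer1 (0.53 ± 0.22) and Nr4a3 (0.93 ± 0.46) were the others, and all 3 had a higher vehicle level in AMY, as had 8 of the 10 activity genes (11.7% of all genes). The striatal and forebrain punch markers, of which 7 of 7 and 7 of 11 were higher in AMY, had differences above 0 for 7 of 7 and 9 of 11, with medians of 0.54 and 0.41, and their part in the activity genes' values was not tested. A fit with the hypothalamic marker level in PVN and the amygdala and forebrain marker level in AMY gave Junb a difference of 0.77. No striatal level was in that fit. With the replicate block Junb rose in PVN by 0.51 (adjusted p = 0.0424, edgeR). Of 16 tested clock genes 2 had a difference above 0, and the median was -0.08. At an unadjusted p under 0.05, 1 had the higher response in PVN and 2 the lower, beside 2.24% and 2.37% of all genes. Bhlhe40 had the lowest difference of the list, at -0.71. Cry1 had a difference of 0.68 ± 0.21 and Cry2 of -0.30 ± 0.13. Dbp fell in both regions by 0.66 ± 0.13 in PVN and 0.61 ± 0.17 in AMY. Among 15 tested genes of insulin, FoxO and mTOR signalling, 5 rose in PVN and 3 in AMY, beside 3.62% and 3.53% of all genes, and 3 had an unadjusted p under 0.05 with the lower response in PVN and 0 with the higher (2.37% and 2.24% of all genes). Ddit4, Irs2 and Deptor were those 3, with Irs2, an insulin receptor substrate, at 0.65 ± 0.09 and 0.98 ± 0.09. Over the 15 genes the difference was above 0 for 9, with a median of 0.04. Among 19 potassium channel genes 4 rose and 1 fell in PVN, and 3 rose and 0 fell in AMY. Over all genes the shares were 3.62% and 2.13% in PVN and 3.53% and 2.02% in AMY. Kcnj2, an inward rectifier, fell in PVN by 0.94 ± 0.22, with a difference of -0.75 ± 0.31, and Kcnk1 rose in both, by 0.75 ± 0.09 in PVN and 0.41 ± 0.10 in AMY.

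For further lists the member with the smallest p of the difference is given, and no member of any list passed. Timp3, an inhibitor of matrix proteases in vessel walls and elsewhere, rose in AMY by 0.35 ± 0.08 and had -0.02 ± 0.08 in PVN, a difference of -0.39 (interval -0.61 to -0.16, p = 0.00118, adjusted p = 0.609, edgeR). Pnpla2, the main triglyceride lipase, rose by 1.28 ± 0.14 in PVN and 1.82 ± 0.17 in AMY, a difference of -0.56 ± 0.21. Ncoa1, a coactivator of steroid receptors, rose in PVN by 0.25 ± 0.08 and had 0.05 ± 0.08 in AMY. Cxcl12, a chemokine of vessels, fell by 1.16 ± 0.15 in PVN and 0.84 ± 0.16 in AMY. Pcsk1, a peptide-processing protease listed with the CRH system, had a difference of 0.65 ± 0.32. Tgfbr2, a TGF-beta receptor, had -0.46 ± 0.26 and Gabrd, the delta subunit of extrasynaptic GABA receptors, 0.91 ± 0.47. Slc7a3, an amino acid transporter, had -0.37 ± 0.18 and the chaperonin Hspd1 0.30 ± 0.16.

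Microglial markers were lower after dexamethasone in both regions. The mean log2(CPM + 1) over 13 tested markers of 14 was lower by 0.43 in PVN (-0.43) and by 0.54 in AMY (-0.54), each at an adjusted p of 0.00052 (permutation test, two-sided). Their summed level ran from 328 to 455 CPM in PVN vehicle libraries and from 194 to 374 after dexamethasone, and from 563 to 1066 and 342 to 682 in AMY. Cx3cr1, the fractalkine receptor of microglia, fell by 2.02 ± 0.13 in PVN and 2.18 ± 0.12 in AMY, and P2ry12 fell by 0.75 ± 0.18 and 0.97 ± 0.14. Csf1r, a receptor microglia need to survive, had 0.11 ± 0.10 and -0.07 ± 0.11. Of the 13 markers 3 fell in each region, beside 2.13% of all genes in PVN and 2.02% in AMY, and 0 passed the difference. The median fold change over the markers was -0.24 in PVN and -0.21 in AMY. The mean log2(CPM + 1) over 4 tested oligodendrocyte precursor markers of 6 was lower in PVN by 0.30 (-0.30, adjusted p = 0.0368, permutation test, two-sided), and its AMY value was 0.00. The median fold change over the 4 was -0.20 in PVN and -0.11 in AMY. One marker fell in PVN, Cspg4 (-0.76), and another rose in AMY, Neu4 (0.63), both named after their values were seen, and 0 passed the difference. Their part in the difference between regions was not tested.

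Vehicle levels differed between PVN and AMY in 2135 of the 9820 genes (21.7%), tested within 14 vehicle animals, 984 higher in PVN (10%) and 1151 higher in AMY (11.7%). Of the 10 closest genes Chrna4 and Tm6sf1 were higher in PVN, by 2.09 and 0.46 log2 units, and Mertk, Kcnh1 and Rgs2 were lower in PVN. Those 3 are also the genes of the 10 with the higher response in PVN. For the other 5, Rab11fip3, Sox4, Bhlhe40, Synm and Trib2, the vehicle difference of 0.02 to 0.28 did not pass the test. The same vehicle libraries enter both quantities, so the vehicle difference and the difference of responses are not independent.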

How the data were processed

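Counts of 59 PVN and AMY libraries were analysed. The deposited table holds whole-number counts per gene that the authors made with UMI-tools 0.5.4, STAR 2.6.0a and featureCounts 1.6.4 on mm10, per the submitters' processing notes. Libraries were 3' end libraries with molecular identifiers, per the labels' protocols. The annotation and the use of strand are not given in the sources used here. Some columns lack the shared name prefix and were matched by region, arm and number. The authors also deposited variance-stabilised log2 values, used only to see which libraries they kept, which were all 59.

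Symbols from GENCODE M21 matched 27645 of 27998 genes. Genes were filtered by group with filterByExpr (minimum count 10), scaled by TMM and tested with edgeR 4.0.16 (quasi-likelihood, R 4.3.3): animal as a fixed block, region, and region by treatment. Responses within each region and vehicle levels used the same genes and factors. Standard errors follow from the log2 value and its p. Levels are TMM-scaled CPM. Marker lists used 100000 resamples. Scripts were tested on simulated data. Alternatives used DESeq2 1.42.0, limma 3.58.1, other scalings and filters, covariates, thinned libraries and each animal left out. The animals pair the regions per the labels. Deviations of the PVN and AMY libraries of an animal correlated at -0.233 to 0.228 (29 pairs, across genes). Their median was 0.031, and 4 of the 29 pairs were over 0.1. Same-numbered vehicle and dexamethasone libraries shared the plate in 14 of 14 pairs of PVN and 15 of 15 of AMY, and the punching date in 13 and 14, per the labels, and correlated at a median of 0.0996 and 0.143. The responses within a region were fitted without this number and, as an alternative, with it as a block. The closest 10 genes were named by p, with all tested glucocorticoid and peptide genes and the member of other lists with the smallest p, of which 1 is not reported here. Members and lists were chosen with earlier results of these data known.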

Additional observations from a re-analysis of the deposited data

How the results depend on the processing

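The count of 0 genes with a difference between responses held with the animal block left out (461 genes at an unadjusted p under 0.05), with limma voom and the animal as a random block (465), with DESeq2 (270), under the other scalings, with at least 10 counts in every library, with plate, RNA integrity, punch markers or oligodendrocyte markers in the fit, and without the 7 libraries of RNA integrity under 5. Leaving out each of the 30 animals called 0 genes each time, with smallest adjusted p of 0.0612 to 0.414. With no filter on low counts 21 of 19879 genes passed, led by Oxt, Avp and Tesc. Among them were Sox4, Rgs2 and Bhlhe40 of the 10 closest genes (adjusted p = 0.0195, 0.0302 and 0.0488, edgeR). Dio2 passed there too (adjusted p = 3.8e-05, edgeR). That fit gave each gene the spread of the trend (infinite prior degrees of freedom, against 15.6), so the standard error of Oxt was 0.20 in place of 0.87. With libraries thinned to the smallest total, in 1 random draw, 1 gene passed (Rgs2, 0.82, adjusted p = 0.0318, edgeR), and the cause was not tested.

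The 10 closest genes kept their sign in every alternative in which they were tested. Over 71 named genes and 3010 values, 82 values in 17 genes had the opposite sign. The response of Avp in AMY was -1.53 and became 0.42 under DESeq2, with neither called, and the cause was not tested. With the replicate block the responses held 658 genes in PVN and 644 in AMY, and the calls of named genes it changed (Chrna4, Junb, Crh, Per1 and Dusp1) are given with them. With punching date and plate the counts were 643 and 633, and the named genes newly called, all in PVN, were Chrna4, Avp, Per1 and Dusp1. DESeq2 newly called Chrna4 in PVN. None of these fits lost a call of a named gene. Libraries differ in depth by up to the ratio of 361319 to 1277998 counts, which limits genes of few counts such as Nrros.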
